A study of Mus musculus with 70 samples.

Results

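Hmgcs1, Mvk, Idi1, Fdps, Fdft1, Sqle, Lss and Cyp51 encode 8 enzymes of cholesterol synthesis. They were taken by symbol from a table of 55011 genes measured in 70 libraries of mouse hindlimb muscle, and all 8 were found. They had been proposed with their values against PBS-injected mice in view, so values against PBS are given as a description with no test. Comparisons that do not use PBS were tested, although some of them use cytokine libraries that also enter the description.

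Cholesterol is built from acetyl-CoA through mevalonate, which is turned into isoprenoid units and joined into squalene, the first dedicated sterol precursor. Squalene is oxidised, closed into lanosterol and trimmed to cholesterol. When sterols run low in the endoplasmic reticulum, Scap carries the SREBP transcription factors to the Golgi, where proteases release them to activate most genes of the pathway. Insig proteins hold Scap back when sterols are plentiful. Among the genes described here, Hmgcs1 makes HMG-CoA, Mvk phosphorylates mevalonate, Idi1 interconverts the first isoprenoid units, and Fdps joins them into farnesyl diphosphate. Fdft1 makes squalene, Sqle adds oxygen to it, Lss closes it into lanosterol, and Cyp51 removes a methyl group from lanosterol.

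The promoters of 4 of these genes are shown because 2 of the genes, Hmgcs1 and Cyp51, followed most of the pathway after cytokine injection while the others, Mvk and Lss, did not. Each sequence holds the 250 bases before the transcription start in the RefSeq annotation of GRCm38.p6, read 5′ to 3′ on the gene's own strand. Capitals mark the sterol regulatory element TCACNCCAC and the CCAAT box, both searched on both strands. No overlap between the motifs was found in these windows. The windows lie at chr13:119690101-119690350 on the plus strand for Hmgcs1, chr5:4104698-4104947 on the minus strand for Cyp51, chr5:114444019-114444268 on the plus strand for Mvk, and chr10:76531355-76531604 on the plus strand for Lss.
Hmgcs1: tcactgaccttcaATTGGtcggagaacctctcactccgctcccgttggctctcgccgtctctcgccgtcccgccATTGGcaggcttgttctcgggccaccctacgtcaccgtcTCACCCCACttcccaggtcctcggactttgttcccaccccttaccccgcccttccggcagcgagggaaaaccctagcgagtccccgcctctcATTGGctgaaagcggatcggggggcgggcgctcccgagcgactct
Cyp51: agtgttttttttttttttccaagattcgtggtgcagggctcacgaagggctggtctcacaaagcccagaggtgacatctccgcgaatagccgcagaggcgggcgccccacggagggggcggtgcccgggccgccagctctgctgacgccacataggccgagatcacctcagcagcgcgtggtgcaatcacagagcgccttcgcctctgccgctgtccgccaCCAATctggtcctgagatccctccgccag
Mvk: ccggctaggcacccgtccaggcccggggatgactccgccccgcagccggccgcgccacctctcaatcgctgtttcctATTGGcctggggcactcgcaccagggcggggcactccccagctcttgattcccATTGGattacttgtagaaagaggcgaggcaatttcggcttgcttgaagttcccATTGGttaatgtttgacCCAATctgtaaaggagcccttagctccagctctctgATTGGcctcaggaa
Lss: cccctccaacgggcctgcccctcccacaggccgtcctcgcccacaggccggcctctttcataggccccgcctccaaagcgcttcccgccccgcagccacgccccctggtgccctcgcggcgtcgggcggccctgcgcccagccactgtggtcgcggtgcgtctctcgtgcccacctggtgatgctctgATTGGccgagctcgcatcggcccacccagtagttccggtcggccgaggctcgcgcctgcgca
The sterol element, searched as TCACNCCAC only and not in variant forms, was found once, in Hmgcs1, as TCACCCCAC starting 137 bases before the start. It was present in 1.05% of 32851 mouse promoter windows of the same length. The CCAAT box was found 3 times in Hmgcs1, 5 times in Mvk and once each in Cyp51 and Lss, and 33.8% of all windows hold at least 1. Promoters matched for 5 of the 8 genes. The fifth, of Idi1, held 2 CCAAT boxes and no sterol element of these letters.

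The libraries fall into 28 groups and 6 experiments. In the cytokine experiment, uninjured C57BL/6J mice were injected intraperitoneally with 4 cytokines together (oncostatin M or Osm, Il-17A, TNFa and Il-1b; the mix), and muscle mesenchymal stromal cells (MmSCs, the fibroblast-like cells of the tissue) were sorted after 2 h (n = 2), 4 h (n = 1) or 8 h (n = 2). Other mice were taken at 2 h after Osm with Il-1b, Osm with TNFa, Osm with Il-17A, or each of the 4 alone (n = 2 each), and the PBS controls (n = 2) carry no time. In the compartment experiment, MmSCs, CD31+ cells, CD45+ cells and satellite cells (MuSCs, the muscle stem cells) came from C57BL/6J mice 1 day after cardiotoxin, a toxin that kills myofibres, or from uninjured ones (n = 3 each). In Il6RD mice, an Il6 reporter and depleter line, MmSCs were sorted 12 h after cardiotoxin by the Thy1.1 label into positive (Thy1.1+, n = 3) and negative cells (Thy1.1-, n = 3). Whole tibialis anterior muscle came from C57BL/6J mice 7 days after cardiotoxin that also received anti-Cxcl5 or IgG (n = 3 each). DMDmdx mice, a dystrophin-deficient model, gave MmSCs at ages of 2.5 and 7 weeks (n = 3 each) and 12.5 weeks (n = 2), and no strain-matched healthy mice of these ages were among the groups used here. Il1b-KO (n = 3) and Il1b-WT (n = 2) littermates gave MmSCs 1 day after cardiotoxin. All sorted libraries were made from 1000 cells and whole muscle from 2 ng of RNA, and the sources used here give no age outside the mdx mice.

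Total counts ran from 2252373 to 8408842 per library. Markers listed for each sorted population were detected in it: the 10 MmSC markers summed to between 37975 and 172928 CPM (counts scaled to the library total) in MmSC libraries, endothelial markers to 8139 CPM or more in CD31+ cells, leukocyte markers to 23661 CPM or more in CD45+ cells and satellite cell markers to 6254 CPM or more in MuSCs. Markers listed for other cell types were detected too. These sums do not tell carried-over cells from expression by the sorted cells themselves. MmSC markers summed to 2349 to 6497 CPM and mural markers to 533 to 2576 CPM in MuSCs. In CD31+ cells MmSC markers summed to 3442 to 4600 CPM and adipocyte markers to 3144 to 5061 CPM. The labels do not say which libraries came from which animal, so p-values cover only the spread among these libraries, which may be technical. In bulk libraries, fewer cells of a type and less RNA per cell cannot be told apart. Several libraries stood apart from their replicates for the genes described here: uninjured MmSC replicate 1, uninjured MuSC replicate 1 and mdx 2.5-week replicate 2 were high, and TNFa replicate 2 and Il-17A replicate 2 were low.

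In GRCm38 the genes lie at chr13:119690379-119708260 (Hmgcs1), chr5:114444269-114460591 (Mvk), chr13:8885501-8892451 (Idi1), chr3:89093588-89101959 (Fdps), chr14:63145150-63179578 (Fdft1), chr15:59315077-59331192 (Sqle), chr10:76531588-76557138 (Lss) and chr5:4081145-4104746 (Cyp51). Several overlap another gene: Fdft1 overlaps Ctsb, Cyp51 overlaps Akap9, Hmgcs1 overlaps Gm48342, Idi1 overlaps Gm48574 and Lss overlaps 4930483K19Rik, each on the opposite strand. Fdps overlaps Gm43738 and Gm22935 on its own strand. Fdft1 shares a 774-base stretch with Ctsb and is 97.4% identical to Gm6781 over 1249 bases, and Idi1 is 100% identical to Gm13502 over 684 bases. The sources used here do not give the strand setting or the handling of shared reads, so the counts of Fdft1, Idi1 and these overlapping genes are uncertain to that extent.

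Per kilobase of merged exons, Hmgcs1, Cyp51 and Sqle had the highest levels of the 8 genes, with medians over the 28 group means of 15.1, 14.8 and 12.7 CPM per kilobase. Fdft1 and Mvk followed at 7.38 and 5.02 CPM per kilobase. Fdps stood at 2.7, Lss at 0.796 and Idi1 at 0.666 CPM per kilobase. Idi1 rested on few reads, with a median of 12 counts per library, against 360 counts for Hmgcs1, 370 counts for Sqle and 315 counts for Cyp51. It had 0 counts in uninjured CD31+ replicate 2 and mdx 2.5-week replicate 1, where a count of 0 allows up to 0.936 and 0.628 CPM.

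The summed CPM of the 8 genes was highest in injured MmSCs of the Il1b genotype experiment. It reached 906 to 1219 CPM in Il1b-KO and 1017 to 1060 CPM in Il1b-WT littermates, and no other group overlapped them. Next came the mix at 2 h with 581 and 693 CPM, also clear of the next group by mean, Osm with Il-1b at 522 and 566 CPM, although 1 uninjured MuSC library reached 751 CPM. From there down, each group overlapped its neighbour in the order. At the low end were the mix at 8 h (127 and 132 CPM), whole muscle with anti-Cxcl5 (111 to 130 CPM) or IgG (109 to 132 CPM), injured CD45+ cells (94 to 124 CPM) and CD31+ cells with injury (98.8 to 108 CPM) and without it (90.2 to 99.5 CPM).

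**Figure D1:**
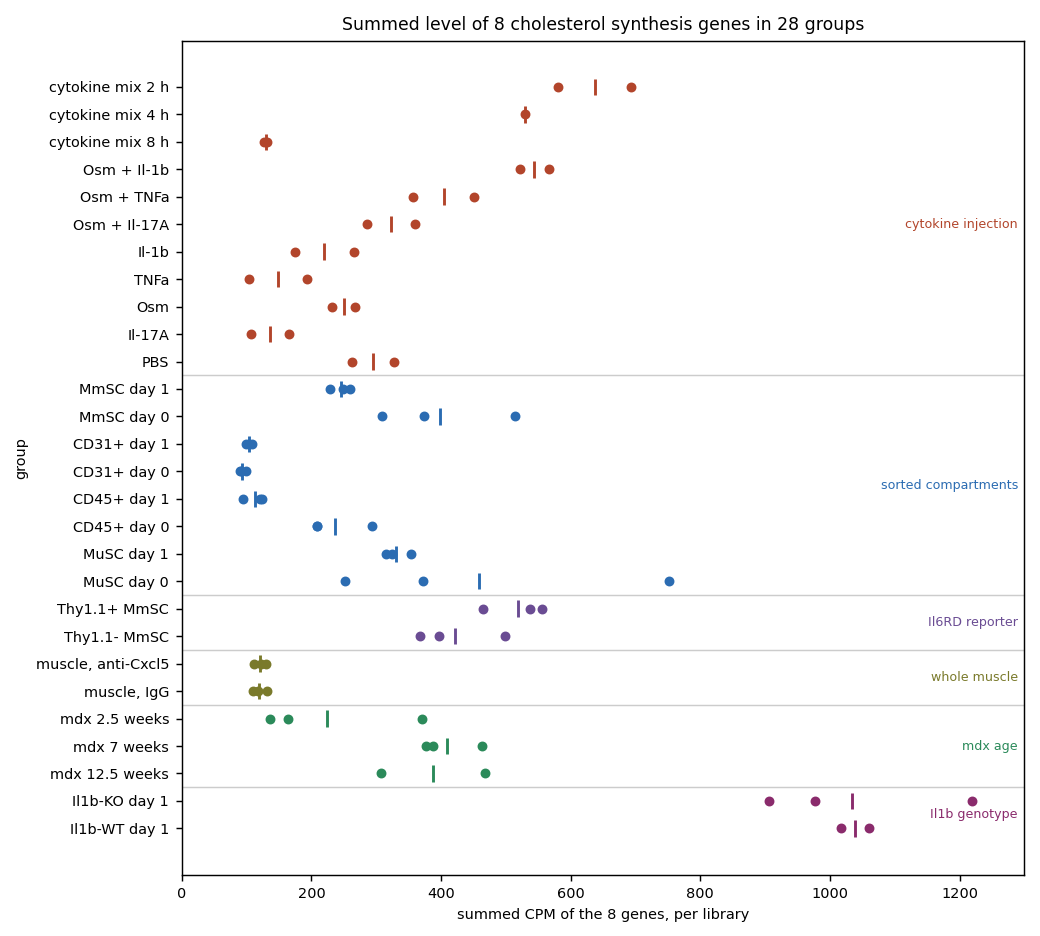
Summed CPM of the 8 genes in every library (points) with group means (bars), by group and experiment. The Il1b genotype libraries sit at 906 to 1219 CPM, far right of injured MmSCs of the compartment experiment at 228 to 260 CPM.

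MmSCs taken 1 day after cardiotoxin appear in 2 experiments, and their levels differed widely. Hmgcs1 had 450, 561 and 403 CPM in Il1b-KO and 469 and 468 CPM in Il1b-WT MmSCs, while injured C57BL/6J MmSCs of the compartment experiment had 25, 24.8 and 18.7 CPM. Idi1 and Cyp51 were likewise higher, at 11.5 to 15.2 and 201 to 296 CPM over both Il1b genotypes against 0.67 to 1.54 and 36 to 63.5 CPM. Sqle and Fdps were also higher without overlap, at 175 to 216 and 22.5 to 31.9 CPM against 44.7 to 52.1 and 10.9 to 17.6 CPM. The other 3 genes were not: Mvk had 26.2 to 30.6 CPM in the Il1b experiment and 39 to 42.3 CPM in the compartment experiment, while Fdft1 (36.7 to 48.1 against 42.1 to 48.6 CPM) and Lss (15.2 to 25.9 against 20.3 to 25 CPM) overlapped. Experiment and group cannot be told apart in these levels.

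The PBS libraries were set against the 19 other cytokine libraries to look for a shift shared by the whole pathway, and no shift common to all 8 genes was seen. Lss was lower in all 19 cytokine libraries, at 3.22 to 11.3 CPM with a median of 5.82, against 21.1 and 13.3 CPM in PBS. Mvk was lower in 18 of the 19. Over all 19 it ran from 5.22 to 18.3 CPM with a median of 8.28, against 15.7 and 19.7 CPM in PBS. Lss was thus the only gene of the 8 whose libraries did not overlap between cytokine and PBS, where 7.9% of the 15965 genes tested had no overlap in that direction and 4.64% in the other. This background is printed for reading only, since the genes were chosen on this contrast.

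The other genes lay on both sides of PBS. Sqle was above both PBS libraries (52.2 and 54.3 CPM) in 12 cytokine libraries and below both in 7. Cyp51 gave the same split, 12 above and 7 below the PBS values of 40.8 and 51.3 CPM. Hmgcs1 was above both PBS libraries in 6 and below both in 11, Fdps above in 4 and below in 12, Fdft1 above in 3 and below in 12, and Idi1 above in 10 and below in 7. The median log2 change of the 8 genes, mean of the 10 cytokine groups minus PBS, was -0.05, beside -0.08 over all genes tested. The dissociation stress list (15 immediate-early and heat shock genes) moved with this contrast: it summed to 1551 to 4206 CPM in cytokine libraries and 1213 and 1719 CPM in PBS. Its part in the values was not tested.

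**Figure D2:**
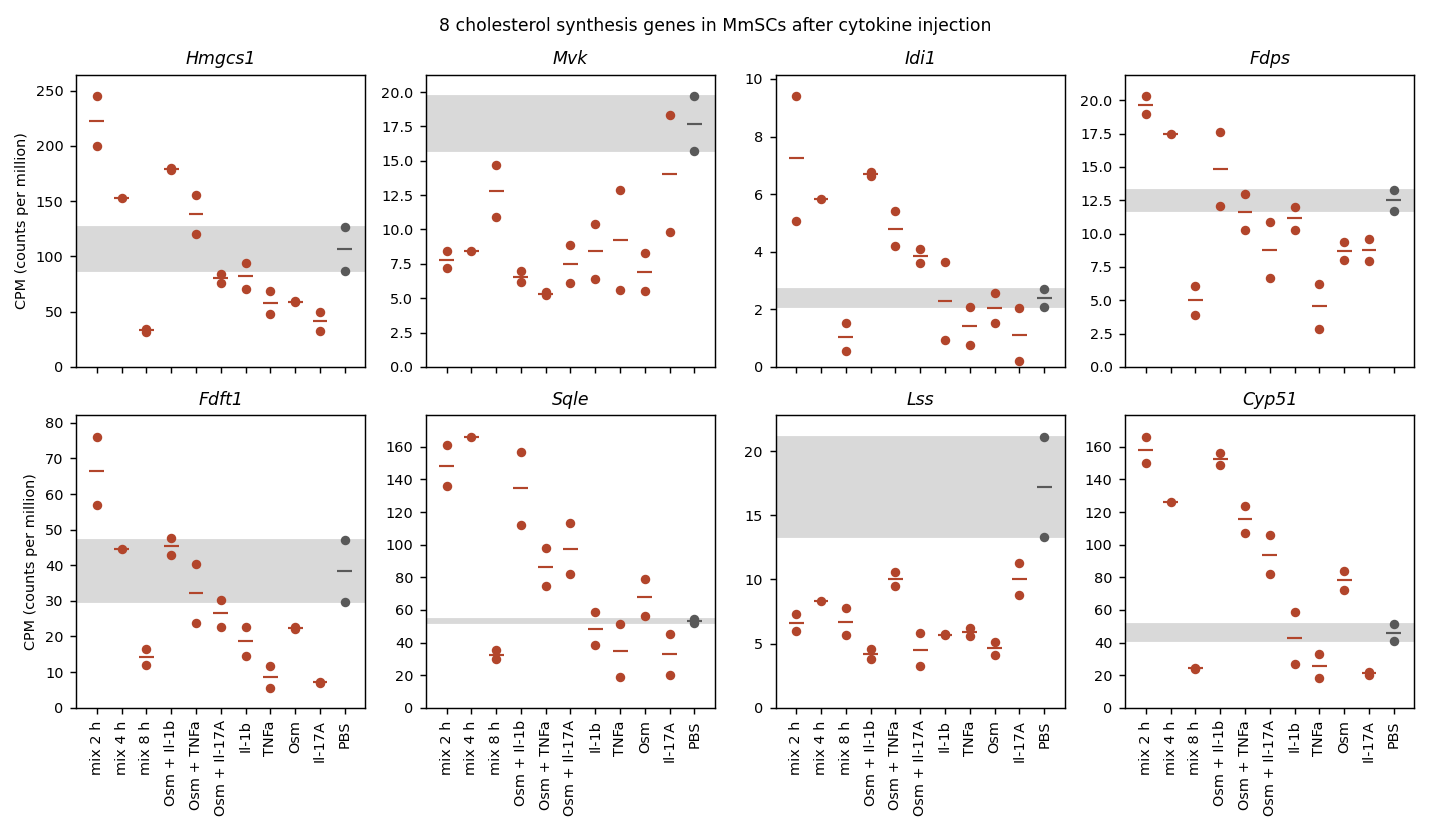
CPM of each gene in the 21 cytokine libraries (points, red for cytokine groups and grey for PBS), with group means as bars and the range of the PBS libraries shaded. Lss sits below the shaded range in all cytokine groups, while Hmgcs1, Sqle and Cyp51 lie above it in the mix at 2 h and below it at 8 h.

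Split by group, the direction differed between cytokine groups. The PBS and mix libraries had 0.869 to 1.64% of counts on the gene model Gm10800 and 21537 to 23154 genes detected. All libraries of single cytokines and pairs had 0.359 to 0.738% and 19285 to 21399 genes. Comparisons of single cytokines or pairs with PBS or the mix cross this split. Its part in those values was not tested. In the mix at 2 h, 6 genes were above PBS in both libraries, a direction without overlap that 20.9% of all genes tested showed, and Mvk and Lss were below it in both, as were 55.6% of all genes. Cyp51 had 150 and 166 CPM in the mix at 2 h, against 40.8 and 51.3 CPM in PBS, a log2 change of 2.30 ± 0.25 (SE). Hmgcs1 had 200 and 245 CPM at 2 h, against 86.6 and 127 CPM in PBS, a log2 change of 1.57 ± 0.21. Sqle, Idi1, Fdft1 and Fdps had log2 changes of 1.99, 2.10, 1.30 and 1.17, and Lss and Mvk had -0.86 and -0.66. CPM values are not corrected for composition, which the fitted changes are.

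Osm with Il-1b gave values near those of the mix at 2 h. Hmgcs1 had 180 and 178 CPM after Osm with Il-1b, and Cyp51 156 and 149 CPM, with log2 changes against PBS of 1.19 ± 0.21 and 2.16 ± 0.25. Idi1 and Sqle were also above both PBS libraries, where 22.4% of genes were, and Lss and Mvk stood below both, where 52.4% of genes did, with log2 changes of -1.59 and -0.98. Osm alone split the pathway: Cyp51 had 84.1 and 72.5 CPM and Sqle 79.1 and 56.5 CPM, above both PBS libraries as were 24.8% of genes. Hmgcs1 had 58.3 and 59.5 CPM and was 1 of 5 genes below both, where 45.2% of all genes were.

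After Il-17A or TNFa alone, all 8 fitted changes against PBS were negative. Fdft1 had 7.01 and 7.33 CPM after Il-17A and 11.8 and 5.44 CPM after TNFa, against 29.8 and 47.2 CPM in PBS, with log2 changes of -2.41 ± 0.34 and -1.99 ± 0.32. In each of these 2 groups 7 of the 8 genes did not overlap PBS, where 27.1% of genes after Il-17A and 36% after TNFa were lower without overlap. The median change of the 8 genes was -0.90 for Il-17A and -0.75 for TNFa, and it depended on single libraries. Leaving out 1 library at a time, it ran from -1.27 to -0.49 for Il-17A and from -1.52 to -0.40 for TNFa. After Il-1b alone the fitted changes ran both ways, with a median of 0.04. In mean CPM all 8 genes were below PBS, from 5.7 against 17.2 CPM for Lss to 2.28 against 2.39 CPM for Idi1. In the mix at 8 h all 8 genes were below both PBS libraries, where 32.7% of genes were, with log2 changes from -0.42 for Mvk to -1.64 for Hmgcs1.

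The time course of the mix gave the widest tested difference within MmSCs. Hmgcs1 had 200 and 245 CPM at 2 h, 153 CPM at 4 h, and 34.6 and 31.7 CPM at 8 h. Cyp51 had 150 and 166 CPM at 2 h, 126 CPM at 4 h, and 24.6 and 23.6 CPM at 8 h. Sqle had 136 and 161 CPM at 2 h, 166 CPM at 4 h, and 35.1 and 29.8 CPM at 8 h. For each of these genes the 8 h libraries lay far below the earlier ones, with no overlap.

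The libraries of both times were among those in view when the 8 genes were proposed. The p-values here, and in the other comparisons among cytokine groups, do not allow for that choice. At 8 h against 2 h, 6 of the 8 genes fell, where 18.7% of the 15965 genes tested were called lower at an adjusted p under 0.05. Hmgcs1 fell by 3.21 on the log2 scale (SE 0.22, adjusted p = 8.7e-10 by edgeR's quasi-likelihood test), a 9.26-fold difference. Cyp51 fell by 3.18 (SE 0.27, adjusted p = 1.08e-08) and Idi1 by 3.30 (SE 0.71, adjusted p = 0.00102). Fdft1, Sqle and Fdps had log2 changes of -2.69, -2.65 and -2.46, with adjusted p of 9.43e-07, 6.18e-06 and 9.89e-06 by edgeR. These 6 calls held without any 1 of the 4 libraries.

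Mvk and Lss did not pass that test. Mvk had 10.9 and 14.7 CPM at 8 h, against 8.43 and 7.16 CPM at 2 h, with a log2 change of 0.24 ± 0.38 (adjusted p = 0.667 by edgeR). Lss had 5.65 and 7.75 CPM at 8 h, against 5.95 and 7.3 CPM at 2 h, with a log2 change of -0.45 ± 0.34 (adjusted p = 0.325). The median of the 8 genes was -2.67, beside 0.03 over all genes tested. MmSC markers summed to 126776 and 131673 CPM at 8 h against 149825 and 154667 CPM at 2 h, and the stress list to 2319 and 2645 CPM against 2351 and 3844 CPM; their part in the difference was not tested.

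The gene lists were chosen with results of the mix at 2 h against PBS known, and the same 2 h libraries enter here. Counts and p-values of the lists at 8 h against 2 h do not allow for that choice. Of 14 other sterol pathway enzymes, 8 fell, none rose and 6 were not called at 8 h against 2 h, with a median log2 change of -1.39. Over all genes tested 18.7% were called lower and 16.6% higher. Msmo1, a sterol methyl oxidase, fell by 2.35 (SE 0.30) and Hsd17b7, a sterol ketoreductase, by 3.46 (SE 0.29). Of 10 genes of SREBP control and sterol uptake, 4 fell, 1 rose and 5 were not called, with a median of -0.02. Among those that fell were Stard4, a cytosolic sterol carrier, by 2.47 (SE 0.36), Insig1 by 2.34 (SE 0.20) and Srebf2, which encodes an SREBP, by 1.83 (SE 0.18), with adjusted p up to 1.45e-05 by edgeR. Insig2 rose by 1.03 (SE 0.18, adjusted p = 0.000105).

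Against PBS the values of these genes at 2 h are a description, since the lists were chosen with results of that contrast known and the libraries are those in which the 8 genes were chosen. Of the 14 enzymes 9 had positive and 5 negative changes, with a median of 0.67 beside -0.06 over all genes. Msmo1 had a log2 change of 1.86 ± 0.30 (SE), and Dhcr7, which makes the last double-bond reduction on the way to cholesterol, had -1.36 ± 0.36. Of the 10 control and uptake genes 7 had positive and 3 negative changes, with a median of 0.18. Insig1 had 1.69 ± 0.20, Stard4 1.26 ± 0.33, Srebf2 0.95 ± 0.18 and Insig2 -0.71 ± 0.18.

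Lists further from sterol synthesis were mixed at 8 h against 2 h, to be read beside the same 18.7% lower and 16.6% higher over all genes. Of 11 fatty acid synthesis genes 6 fell and 1 rose, of 11 sterol efflux, storage and LXR target genes 4 fell and 1 rose, and of 10 genes that use isoprenoids outside sterols 3 fell and 1 rose. All 7 genes of an interferon and oxysterol list fell, with a median of -2.95. Of 15 stress genes 6 fell and 1 rose.

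Among cytokines given singly, some of the 8 genes were higher after Osm or Il-1b than after Il-17A, in comparisons that leave PBS out. Cyp51 had 84.1 and 72.5 CPM after Osm, against 22.1 and 20.3 CPM after Il-17A, and rose by 2.12 (SE 0.27, adjusted p = 4.51e-06 by edgeR). Fdft1 had 22 and 22.7 CPM after Osm, against 7.01 and 7.33 CPM after Il-17A, and rose by 1.88 (SE 0.35, adjusted p = 0.000349). Neither gene's libraries overlapped between these groups of 2 libraries each, and the share of all genes without overlap is not given here.

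Osm against Il-17A called 4 of the 8 genes higher and none lower, where 15.1% of genes were called higher. Mvk and Lss had lower levels after Osm and were not called. Lss had 5.14 and 4.13 CPM after Osm, against 11.3 and 8.8 CPM after Il-17A, a log2 change of -0.87 ± 0.34 (adjusted p = 0.0692 by edgeR) that passed with upper-quartile factors (-0.99, adjusted p = 0.0387). Mvk had a change of -0.79 ± 0.39 (adjusted p = 0.146). The genes called higher, besides Cyp51 and Fdft1, were Sqle (log2 change 1.29, adjusted p = 0.0102 by edgeR) and Hmgcs1 (0.76, adjusted p = 0.0134). The calls of Hmgcs1 and Sqle depended on single libraries: the Hmgcs1 change was as low as 0.48 and its adjusted p as high as 0.212 without 1 library, and the call was lost without Osm replicate 1, Osm replicate 2 or Il-17A replicate 2. For Sqle, removal of Osm replicate 1 or Il-17A replicate 2 ended the call, with a change down to 0.81 and an adjusted p up to 0.173.

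Il-1b against Il-17A called 3 genes higher and none lower, where 15.9% of genes were called higher. Hmgcs1 had 94.4 and 70.7 CPM after Il-1b, against 49.4 and 32.9 CPM after Il-17A, and rose by 1.30 (SE 0.22, adjusted p = 0.000127 by edgeR). Fdft1 rose by 1.67 (SE 0.35, adjusted p = 0.00134) and Cyp51 by 1.30 (SE 0.27, adjusted p = 0.00126). The Cyp51 call was lost without Il-1b replicate 1, at a change of 0.72 and an adjusted p of 0.0678, and Sqle was called without Il-17A replicate 1 (1.52, adjusted p = 0.0221). Lss was lower after Il-1b and was not called, with a change of -0.51 ± 0.34 (adjusted p = 0.311 by edgeR). TNFa against Il-17A called none of the 8, where 6.22% of genes were called in either direction; Hmgcs1 and Fdps had an unadjusted p under 0.05, and DESeq2 also called 0. Without TNFa replicate 2, Hmgcs1 was called higher (0.88, adjusted p = 0.0443 by edgeR).

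Each cytokine added to Osm was compared with Osm alone, and Il-1b gave the most calls, a difference in count that was not itself tested. Hmgcs1 had 180 and 178 CPM after Osm with Il-1b, against 58.3 and 59.5 CPM after Osm alone. It rose by 1.80 (SE 0.21, adjusted p = 4.94e-06 by edgeR), a 3.47-fold difference. Fdft1, Sqle and Cyp51 rose by 1.21, 1.18 and 1.15, so that 4 of the 8 were called higher, where 7.21% of genes were. Hmgcs1 and Cyp51 stayed called without any 1 library, while 3 of the 4 removals ended the calls of Fdft1 (adjusted p up to 0.0744) and Sqle (up to 0.199): either Osm library for both genes, Osm with Il-1b replicate 2 for Fdft1 and replicate 1 for Sqle. Fdps was called without Osm with Il-1b replicate 1 (1.23, adjusted p = 0.0465). Idi1 had 6.77 and 6.62 CPM, against 2.57 and 1.52 CPM after Osm alone, a log2 change of 1.90 ± 0.65 (adjusted p = 0.0625).

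Adding TNFa to Osm called 2 genes higher, where 3.58% of genes were. Hmgcs1 had 156 and 120 CPM after Osm with TNFa, against 58.3 and 59.5 CPM after Osm, and rose by 1.32 (SE 0.21, adjusted p = 0.000372 by edgeR). Lss had 10.6 and 9.52 CPM, against 5.14 and 4.13 CPM after Osm, and rose by 1.21 (SE 0.34, adjusted p = 0.0489), a call that was lost by DESeq2 and without any 1 of the 4 libraries (change 1.07 to 1.34, adjusted p from 0.141 to 0.293). Adding Il-17A to Osm called none of the 8, where 1.22% of genes were called. The mix at 2 h against Osm with Il-1b also called none, where 3.01% of genes were called, with changes from 0.13 for Cyp51 to 0.73 for Lss, all positive. At an unadjusted p under 0.05 stood Hmgcs1 in the first of these comparisons and Fdft1 in the second, and DESeq2 called 0 of the 8 in both.

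Across the 21 cytokine libraries the 8 genes fell into 6 that varied together and 2 that did not. Pearson's r between each gene's log2 CPM and the mean of the other 7 was 0.884 for Fdft1, 0.862 for Fdps, 0.861 for Hmgcs1, 0.842 for Idi1, 0.828 for Sqle and 0.764 for Cyp51. It was -0.209 for Mvk and 0.0509 for Lss. Sqle and Cyp51 were the closest pair, at 0.947. These libraries share groups, so the values describe the pattern and carry no test.

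**Figure D3:**
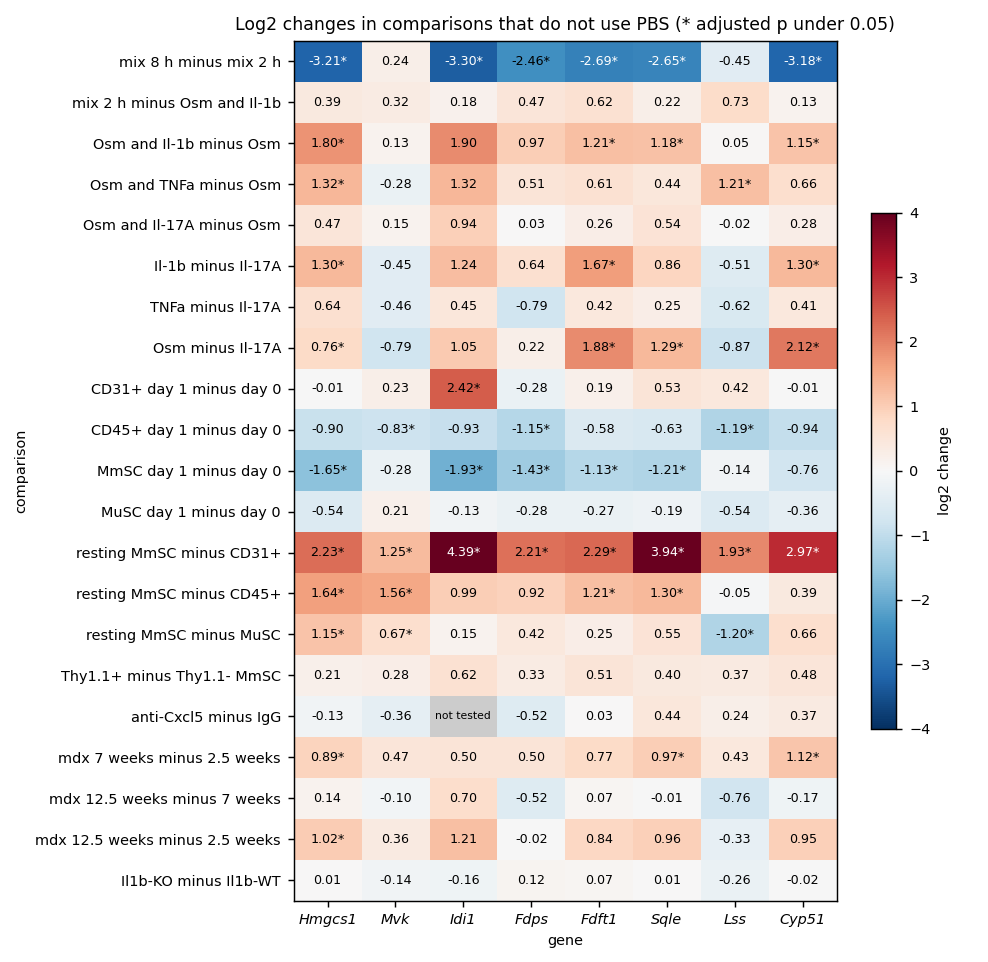
Log2 change (colour and number) of each gene in the 21 comparisons that do not use PBS, with an asterisk where the adjusted p was under 0.05. The mix at 8 h against 2 h and uninjured MmSCs against CD31+ cells hold the strongest colours, and the Il1b genotype row is near 0 throughout.

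In resting muscle all 8 genes were higher in MmSCs than in CD31+ cells, where 24% of the 16374 genes tested were called higher. Sqle had 114, 74.3 and 88.2 CPM in uninjured MmSCs, against 6.32, 7.8 and 8.84 CPM in CD31+ cells, and was higher by 3.94 (SE 0.36, adjusted p = 4.72e-09 by edgeR). Cyp51 had 97.1, 49.9 and 63 CPM in MmSCs, against 12.6, 13.4 and 7.92 CPM in CD31+ cells, and was higher by 2.97 (SE 0.41, adjusted p = 2.82e-06). Mvk differed least, by 1.25 (SE 0.25). No gene's libraries overlapped between these populations, where 20.6% of genes were higher without overlap, and all 8 calls held without any 1 library.

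Against CD45+ cells, 4 genes were higher in resting MmSCs and none lower, where 28.5% of genes were called higher. Mvk had 46.7, 32.1 and 42.7 CPM in MmSCs, against 19.5, 18.1 and 11.1 CPM in CD45+ cells, a change of 1.56 ± 0.25 (adjusted p = 1.75e-05 by edgeR). Hmgcs1, Sqle and Fdft1 had changes of 1.64, 1.30 and 1.21, and the Fdft1 call was lost without MmSC replicate 1 (0.68, adjusted p = 0.0952). Cyp51 and Lss were not called, with changes of 0.39 ± 0.36 and -0.05 ± 0.39.

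Against MuSCs, Hmgcs1 and Mvk were higher and Lss was lower in resting MmSCs, where 23.4% of genes were called higher and 17.3% lower. Lss had 25, 18.8 and 16.3 CPM in MmSCs, against 116, 59.9 and 36.1 CPM in MuSCs, a change of -1.20 ± 0.38 (adjusted p = 0.0137 by edgeR) with no overlap. Hmgcs1 had 74.5, 50.3 and 53.1 CPM in MmSCs, against 75.5, 28 and 17.2 CPM in MuSCs, a change of 1.15 ± 0.33 (adjusted p = 0.00749) with overlapping libraries. MuSC replicate 1 was the highest uninjured MuSC library for all 8 genes. Without it 6 of the 8 genes were called, among them Cyp51 at 1.41 and Sqle at 1.15, and the Lss change was -0.60 (adjusted p = 0.236 by edgeR). Over the 6 single removals 5970 to 6484 genes were called in all, in either direction, against 6664 with all libraries. Without MmSC replicate 1 only Lss was called, and Hmgcs1 stood at 0.68 (adjusted p = 0.152). The Mvk call (0.67, adjusted p = 0.0306) was lost without any library other than MuSC replicate 1.

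Injury lowered 5 of the 8 genes in MmSCs at day 1, where 23.6% of the 16374 genes tested were called lower. Hmgcs1 had 25, 24.8 and 18.7 CPM in MmSCs at day 1, against 74.5, 50.3 and 53.1 CPM at day 0, and fell by 1.65 (SE 0.34, adjusted p = 0.000373 by edgeR). Sqle had 44.7, 47.9 and 52.1 CPM at day 1, against 114, 74.3 and 88.2 CPM at day 0, and fell by 1.21 (SE 0.30, adjusted p = 0.00221). Idi1, Fdps and Fdft1 had changes of -1.93, -1.43 and -1.13. The libraries of these 5 genes did not overlap between the days, where 23.7% of genes were lower without overlap.

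Uninjured MmSC replicate 1 carried much of that difference. It had the highest level of its group for all 8 genes, and without it Hmgcs1 was the only call (-1.25, adjusted p = 0.0092 by edgeR). Idi1 then stood at -1.24 (adjusted p = 0.0852), Fdps at -0.95 (adjusted p = 0.0894), Sqle at -0.82 (adjusted p = 0.0511) and Fdft1 at -0.65 (adjusted p = 0.141). With all libraries Mvk, Lss and Cyp51 had changes of -0.28, -0.14 and -0.76 and were not called. The 10 MmSC markers summed to 37975 to 56358 CPM at day 1, against 136994 to 158663 CPM at day 0, and their part in the difference was not tested.

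The same injury comparison lowered some other genes of the pathway in MmSCs, where 23.6% of all genes were called lower and 18.2% higher. Of the 14 other enzymes 5 fell and none rose, among them Msmo1 by 1.81 (SE 0.31). Of the 10 control and uptake genes 7 fell and none rose, among them Insig1 by 2.42 (SE 0.29) and Srebf2 by 1.36 (SE 0.16). The median changes of the lists were -0.74 and -1.12, beside -1.17 for the 8 genes and -0.22 for all genes. Of 11 sterol efflux, storage and LXR target genes 4 rose and 6 fell, of 11 fatty acid synthesis genes 3 fell and none rose, and of 10 isoprenoid users 5 rose and none fell. Of 7 interferon and oxysterol genes 1 rose and 3 fell, and of 15 stress genes 4 rose and 2 fell.

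In CD45+ cells all 8 genes were lower at day 1 without overlap, a pattern that 30.6% of genes showed, and 3 of them were called, where 18.7% of genes were called lower. Lss had 9.53, 9.87 and 8.41 CPM at day 1, against 35.9, 19 and 19.3 CPM at day 0, and fell by 1.19 (SE 0.41, adjusted p = 0.0293 by edgeR). Fdps fell by 1.15 (SE 0.42, adjusted p = 0.0391) and Mvk by 0.83 (SE 0.28, adjusted p = 0.0235). Cyp51 and Hmgcs1 stood close to the threshold, with changes of -0.94 and -0.90 and adjusted p of 0.0569 and 0.0606.

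These 3 CD45+ calls were each lost without most single libraries. The Fdps change was between -1.58 and -0.80 and its call was lost without any library other than day 1 replicate 2. The Lss change was between -1.37 and -0.71 and its call was lost without day 0 replicate 1 or any day 1 library. The Mvk change was between -1.06 and -0.58 and its call was lost without replicates 1 or 2 of either day. The highest adjusted p of these fits were 0.201 for Fdps, 0.249 for Lss and 0.166 for Mvk, by edgeR. With a minimum count of 30, with upper-quartile factors or with CD45+ libraries fitted alone, 5 of the 8 genes were called. The shares of all genes called under these settings are not given here. Of the 15 stress genes 12 rose and 2 fell in the same cells, where 15.9% of all genes were called higher, and the list summed to 15083 to 21436 CPM at day 1 against 3972 to 7210 CPM at day 0; its part in the values was not tested.

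CD31+ cells and MuSCs gave 1 call between them with injury. In CD31+ cells 1 gene, Idi1, was called higher, where 14.2% of genes were, on 18 counts at day 1 and 2 counts at day 0. Corrected for library size that is a ratio of 5.79, with a 95% counting interval from 1.39 to 51.5 that covers counting error only. The call was lost without CD31+ day 0 replicate 1 or 2 or day 1 replicate 2 (change 1.95 to 2.87, adjusted p up to 0.1 by edgeR), and by DESeq2 none of the 8 was called. In MuSCs none of the 8 was called, where 38.8% of genes were called in either direction; 0 had an unadjusted p under 0.05 and DESeq2 called 0. Hmgcs1 had 23.8, 23 and 26.4 CPM in MuSCs at day 1, against 75.5, 28 and 17.2 CPM at day 0, and the day 0 libraries lay on both sides of those of day 1. Without MuSC day 0 replicate 1 the median change of the 8 genes was 0.38, against -0.27 with it. Without MuSC day 0 replicate 3, the lowest of its group for Hmgcs1, that gene was called lower (-0.90, adjusted p = 0.0227 by edgeR).

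**Figure D4:**
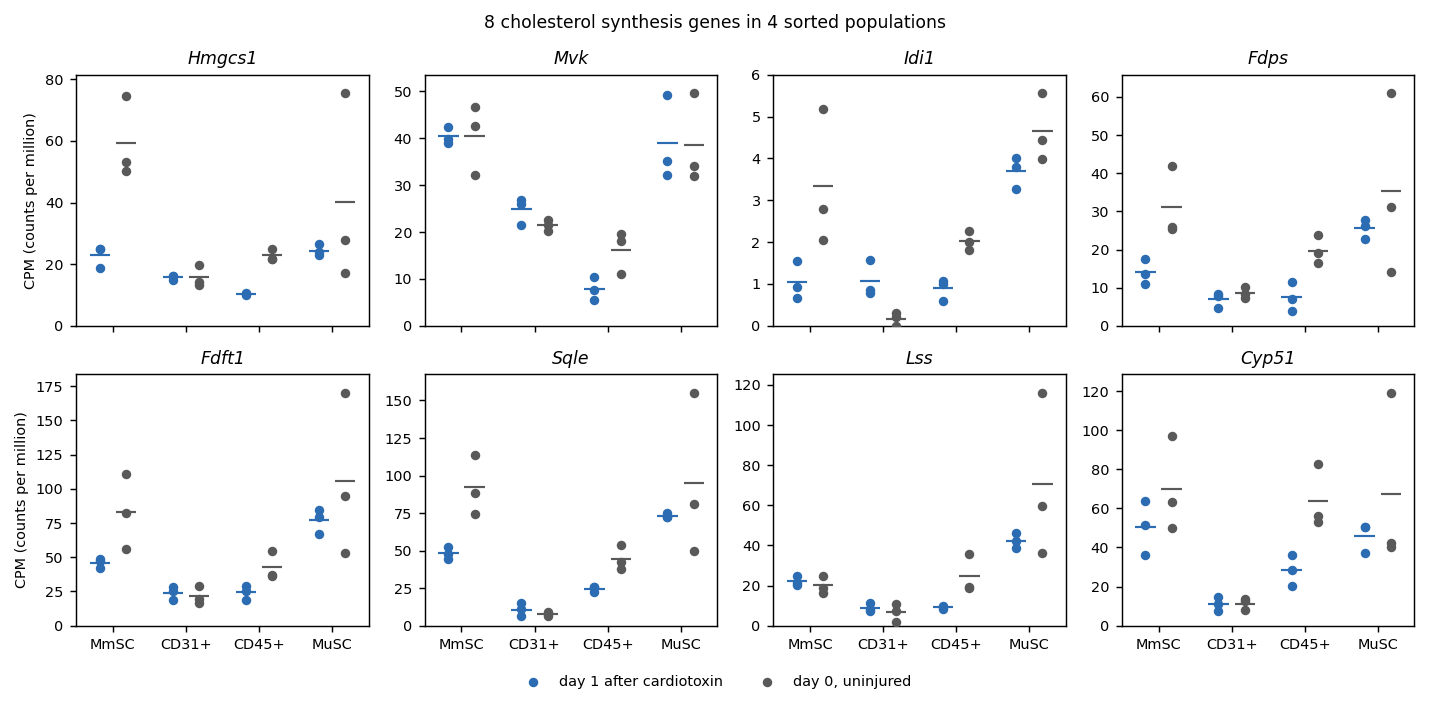
CPM of each gene in the 4 sorted populations, day 1 after cardiotoxin (blue) beside day 0 (grey), each point 1 library and each bar a group mean. CD45+ libraries of day 1 lie below those of day 0 for all 8 genes, and a high MmSC and a high MuSC library are visible at day 0.

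The injury change in MmSCs was also tested against that of each other population. Compared with CD31+ cells it was more negative for Idi1, Sqle and Hmgcs1, where 7.71% of genes were called in that direction. The differences in log2 change were -4.35 ± 0.90 for Idi1, -1.75 ± 0.48 for Sqle and -1.65 ± 0.49 for Hmgcs1, with adjusted p of 0.00233, 0.0188 and 0.0288 by edgeR. The Idi1 value rests on the 2 counts named above. Without MmSC day 0 replicate 1, Sqle and Hmgcs1 stood at -1.35 and -1.23 with adjusted p of 0.0859 and 0.135, and Hmgcs1 lost its call without 7 of the 12 libraries, each left out in turn.

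Compared with CD45+ cells and with MuSCs, none of the 8 passed the test, where 25% and 7.64% of genes were called in either direction. The Hmgcs1 difference was -0.75 ± 0.49 against CD45+ cells and -1.11 ± 0.47 against MuSCs, and the Lss difference was 1.05 ± 0.56 and 0.40 ± 0.53. At an unadjusted p under 0.05 there were 0 of the 8 against CD45+ cells and 4 against MuSCs (Hmgcs1, Idi1, Fdps and Sqle), and DESeq2 called 0 in both. Without MuSC day 0 replicate 1, 4 of the 8 genes passed against MuSCs. Hmgcs1 stood at -2.02 (adjusted p = 0.000621 by edgeR), Sqle at -1.62 (0.00821), Fdps at -1.87 (0.0309) and Fdft1 at -1.42 (0.0376). Over the 12 single removals 839 to 1175 genes were called in all for this comparison, against 1251 with all libraries.

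In Il6RD mice, the 8 genes had positive changes in Thy1.1+ against Thy1.1- MmSCs, from 0.21 for Hmgcs1 to 0.62 for Idi1. In the fit that left out the pairing of same-numbered libraries, none was called, and neither was any of the 11975 genes tested (0%). In that fit 1258 genes had an unadjusted p under 0.05, Cyp51 and Fdft1 among them. Cyp51 had 127, 133 and 127 CPM in Thy1.1+ cells, against 123, 78.8 and 88.3 CPM in Thy1.1- cells, and was the only gene of the 8 with no overlap, where 4.88% of genes were higher without overlap. Its change was 0.48 ± 0.18 (adjusted p = 0.415 by edgeR). Libraries with the same number deviated together in all 3 pairs. With that replicate block 1286 of the 11975 genes were called. Of the 8 genes 1 was among them, Cyp51 at 0.49 (adjusted p = 0.0314 by edgeR). DESeq2 called 115 genes without the block, and 0 of the 8.

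In whole muscle 7 days after injury, none of the 7 genes that could be tested was called between anti-Cxcl5 and IgG by edgeR, where 4 genes (0.03%) were called in all. Idi1 did not pass the filter on low counts, at 1.21, 1.17 and 0.942 CPM with anti-Cxcl5 and 0.451, 0.139 and 1.57 CPM with IgG. Hmgcs1 had 41.3, 52.3 and 53.7 CPM with anti-Cxcl5, against 48.4, 50.3 and 54.5 CPM with IgG. The changes ran from -0.52 for Fdps to 0.44 for Sqle, 0 of them at an unadjusted p under 0.05, and DESeq2 called 0.

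In mdx MmSCs, 3 of the 8 genes were higher at 7 than at 2.5 weeks, where 21.9% of the 13160 genes tested were called higher. Hmgcs1 had 71.6, 131 and 74.1 CPM at 2.5 weeks, 140, 196 and 157 CPM at 7 weeks, and 125 and 216 CPM at 12.5 weeks. Its change at 7 against 2.5 weeks was 0.89 ± 0.24 (adjusted p = 0.00775 by edgeR), with no overlap between these ages. Cyp51 had 19.3, 93.5 and 19.6 CPM at 2.5 weeks, 90.8, 98.9 and 92.2 CPM at 7 weeks, and 67.4 and 89.5 CPM at 12.5 weeks. It rose by 1.12 (SE 0.43, adjusted p = 0.046) and Sqle by 0.97 (SE 0.33, adjusted p = 0.0263) between the first 2 ages, both with overlap.

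Replicate 2 of the 2.5-week mice set how many genes passed. It was the highest of its group for all 8 genes, as for Fdft1 with 4.4, 25.8 and 6.02 CPM at 2.5 weeks. Without it 6 of the 8 genes were called at 7 against 2.5 weeks, with Cyp51 at 2.37, Fdft1 at 2.04 and Hmgcs1 at 1.27. That fit called 6549 genes in all, in either direction, against 5864 with all libraries. With all libraries, removal of either other 2.5-week library ended the calls of Cyp51 and Sqle, as did the removal of any 7-week library for Cyp51 and of 7-week replicate 1 or 2 for Sqle (Cyp51 0.74 to 2.37, adjusted p up to 0.172; Sqle 0.59 to 1.64, adjusted p up to 0.0965). DESeq2 called 1 of the 8 genes in this comparison. The stress list summed to 4517 to 5159 CPM at 7 weeks, against 8802 to 13099 CPM at 2.5 weeks, where replicate 2 had the lowest sum, and its part in the difference was not tested.

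At 12.5 against 2.5 weeks, Hmgcs1 alone was called higher (1.02 ± 0.26, adjusted p = 0.0104 by edgeR), where 13.9% of genes were. The call was lost without 2.5-week replicate 3 or 12.5-week replicate 2 (change down to 0.62, adjusted p up to 0.209), and without 2.5-week replicate 2 there were 5 calls; DESeq2 made none. The fit without 2.5-week replicate 2 called 4788 genes in all at 12.5 against 2.5 weeks, in either direction, against 3465 with all libraries. At 12.5 against 7 weeks none of the 8 was called, where 5.9% of genes were called in either direction. The changes ran from -0.76 for Lss to 0.70 for Idi1, with 0 at an unadjusted p under 0.05 and 0 calls by DESeq2. Of the 14 other enzymes 3 were higher and 2 lower at 7 than at 2.5 weeks, with a median of 0.13, where 21.9% of all genes were called higher and 22.7% lower. Msmo1 and Nsdhl, which act after Cyp51, had changes of 1.23 ± 0.26 and 1.52 ± 0.43 (adjusted p = 0.00182 and 0.0107 by edgeR), and Hsd17b7 had -1.04 ± 0.17 (adjusted p = 0.000278). Of the 10 control and uptake genes 2 were higher and 1 lower.

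Loss of Il1b changed none of the 8 genes detectably in injured MmSCs, where 146 of 12102 genes (1.21%) were called. Hmgcs1 had 450, 561 and 403 CPM in Il1b-KO, against 469 and 468 CPM in Il1b-WT littermates, a change of 0.01 ± 0.12 (adjusted p = 0.99 by edgeR). Sqle had 175, 216 and 184 CPM in Il1b-KO, against 193 and 189 CPM in Il1b-WT, a change of 0.01 ± 0.10. The widest change was that of Lss, -0.26 ± 0.19; 0 of the 8 had an unadjusted p under 0.05 and DESeq2 called 0. Mvk alone did not overlap, at 26.2 to 27.7 CPM in Il1b-KO and 28.9 to 30.6 CPM in Il1b-WT, with a change of -0.14 ± 0.13, where 14.6% of genes were lower without overlap.

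Genes with a pattern most like the mean of the 8 were found by Pearson's r on log2 CPM, outside the lists named above. Over the 28 group means the closest was Tmem97, a sterol-responsive membrane protein also known as the sigma-2 receptor, at 0.784, followed by Polr1c (0.702), Gcat (0.674), Pxylp1 (0.669), Cad (0.658), Nap1l1 (0.655), Xpo4 (0.652) and Nup62 (0.641). Over the 21 cytokine libraries the closest was Pcyt2, an enzyme of phosphatidylethanolamine synthesis, at 0.874, followed by Clcn5 (0.835), Nav3 (0.83), Samd4b (0.807), Thbd (0.805), Snx18 (0.78), Auts2 (0.778) and Gna13 (0.761). No gene was in both sets of 8. Among the listed genes with high values, Msmo1 had 0.874 over group means and 0.886 over the cytokine libraries. Stard4 had 0.433 and 0.884, and Insig1 0.611 and 0.862, in the same order. The listed genes ran down to -0.61 for Mylip over group means and -0.72 for Insig2 over the cytokine libraries. The points share depth, experiment and groups, and no test was made.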

How the data were processed

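RNA-seq libraries of sorted muscle cells or whole muscle were analysed from the gene counts that the authors deposited, made with STAR 2.7.3a and featureCounts on mm10 per the submitters' processing notes. The sources used here do not give the annotation version, strand setting or treatment of shared reads. All 70 count columns were used. Genes were kept by edgeR's filterByExpr with a minimum count of 10, scaled by TMM and tested within each experiment with edgeR 4.0.16 (quasi-likelihood F-test, limma 3.58.1, R 4.3.3), with p adjusted by Benjamini-Hochberg across every gene tested and a call at an adjusted p under 0.05. Standard errors were derived from the log2 change and the F statistic. DESeq2 1.42.0, other scalings and filters, a replicate block and the removal of each library were alternatives. Tests were checked on simulated counts.

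The 8 genes and the gene lists were chosen with earlier results of these data known. Genes outside the 8 were named from those lists or as the 8 with the highest correlation. Single values of some listed genes are not reported here, while counts cover the whole lists. Same-numbered reporter libraries deviated together (r from 0.358 to 0.618 in 3 of 3 pairs) and count as paired; in the cytokine and compartment experiments 2 of 90 and 3 of 84 pairs passed 0.1. Gene positions come from GENCODE and promoters from RefSeq.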

Additional observations from a re-analysis of the deposited data

Results flagged for a closer look

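The change with injury differed between MmSCs and CD31+ cells for 3 of the 8 genes, by a test of the difference itself with edgeR. The difference in log2 change was -1.65 for Hmgcs1 (adjusted p = 0.0288), -1.75 for Sqle (adjusted p = 0.0188) and -4.35 for Idi1 (adjusted p = 0.00233). Idi1 had 2 counts in all in uninjured CD31+ cells. Without uninjured MmSC replicate 1, Idi1 alone stayed past the threshold, at -3.65 (adjusted p = 0.0121), and the highest adjusted p was 0.135 for Hmgcs1 and 0.0859 for Sqle over the 12 single removals.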

How the results depend on the processing

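With the Il-17A group used instead of PBS, the median log2 change of the 8 genes was 1.50 for the mean of all groups, 2.81, 2.34 and -0.14 for the mix at 2, 4 and 8 h, 1.05 for Il-1b, 0.33 for TNFa, 0.90 for Osm, 2.51 for Osm with Il-1b, 1.90 for Osm with TNFa and 1.52 for Osm with Il-17A; TNFa then called 993 genes, against 2361 with PBS. The cause of these shifts was not tested. TMM over all 70 libraries moved the log2 summed level of 5 of 28 groups, to 6.20 and 6.32 in CD31+ cells at days 0 and 1, 7.24 with IgG, 8.10 in uninjured MuSCs and 9.72 in the mix at 2 h. Of 228 medians under settings other than the removal of 1 library, 218 moved by less than the spread between replicates. These settings include fits of 1 population or of 2 mdx ages alone.

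Leaving out 1 library at a time, the median ran from -1.27 to -0.49 for Il-17A, -1.52 to -0.40 for TNFa and -0.69 to 0.14 for Il-1b against PBS, and from 0.44 to 1.41 for Il-1b, -0.61 to 0.79 for TNFa and 0.36 to 1.43 for Osm against Il-17A. It ran from -1.18 to -0.73 for injury in MmSCs and -0.59 to 0.38 in MuSCs, and from -1.40 to -0.75, -0.52 to 0.02 and -1.52 to -0.36 for the MmSC change less those of CD31+, CD45+ and MuSCs. Resting MmSCs gave 1.84 to 2.42 against CD31+ cells, 0.53 to 1.12 against CD45+ cells and -0.03 to 1.03 against MuSCs. Anti-Cxcl5 gave -0.12 to 0.11, and mdx mice gave 0.37 to 1.45 at 7 weeks and 0.48 to 1.49 at 12.5 weeks against 2.5 weeks.

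Counts of all genes called moved by over 1.5 times in some settings. Il1b-KO against Il1b-WT gave 232 by DESeq2 and 594 with no filter, against 146. Osm with Il-17A against Osm gave 444 with no filter, against 195. Thy1.1+ against Thy1.1- gave 115 by DESeq2, 360 with no filter and 1286 with the replicate block, against 0. Anti-Cxcl5 gave 159 with no filter and 0 with the replicate block, against 4. The mdx ages 12.5 and 7 weeks fitted alone gave 2027, against 777. Leaving out 1 library at a time, the count ran from 7 to 670 for Il1b-KO, 36 to 137 for Osm with Il-17A against Osm, 1209 to 1462 (against 2074) for Osm with Il-1b, 399 to 510 (against 713) for Osm with TNFa and 86 to 156 (against 480) for the mix at 2 h against Osm with Il-1b. Against Il-17A it ran from 2670 to 3455 for Il-1b (against 4054), 2763 to 3143 for Osm (against 4167) and 477 to 626 for TNFa. It ran from 137 to 481 for mdx 12.5 against 7 weeks, 1684 to 4788 for 12.5 against 2.5 weeks (against 3465), 0 to 2 for Thy1.1 and 0 to 4 for anti-Cxcl5. The shares of all genes called move with these counts. Of the 8 genes, 1 was called with no filter for TNFa against Il-17A and for the MmSC less CD45+ injury change, against 0 in each; Idi1's injury call in CD31+ cells was absent with a minimum count of 30, with no filter and with CD31+ libraries alone; upper-quartile factors left 1 of 2 calls for Osm with TNFa; and 12.5 against 2.5 weeks gave 4 with no filter and 2 with the replicate block, against 1. The pairing of reporter libraries added Cyp51 (0.49), with a median of 0.37. Idi1's low counts limit what can be detected for it.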
